A study of Solanum lycopersicum with 6 samples.

Results

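The first hour of heat stress (HS) was followed in tomato leaves by setting the 2 RNA-seq libraries taken after 1 h at 45 °C against the 2 taken at 0 h. These 4 libraries belong to a series of 6, the other 2 being from 6 h of HS. All plants were wild type (WT) Solanum lycopersicum cv. M82, 4 weeks old and grown at 24 °C with 16 h of light per day, and each library came from leaves of the pooled plants of a biological replicate. Unheated plants kept for 1 h were not analysed here, so heat and time of day cannot be told apart. Of the 35603 genes in the table, the 19123 with at least 50 counts in at least 2 of the 6 libraries were tested.

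Plants answer high temperature through heat stress transcription factors (HSFs), which bind short repeated elements in the promoters of their target genes. In tomato, HSFA1a acts as the master regulator that starts the response. HSFA2 is a factor that is itself made under HS and that extends the expression of the targets, among them the chaperones that keep other proteins from unfolding and aggregating. Leaf cells are otherwise devoted mainly to photosynthesis.

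Most tested genes differed between the 1 h and 0 h libraries. In total 12144 genes (63.5%) passed the test, of which 6152 (32.2%) rose and 5992 (31.3%) fell, and 6979 (36.5%) were not called. A gene was called when the adjusted p-value of the edgeR quasi-likelihood test was below 0.05. Without regard to the test, both 1 h values lay outside the range of the 0 h values for 15984 genes (83.6%), above it for 8089 (42.3%) and below it for 7895 (41.3%). Rises and falls were thus near equal in number under TMM scaling, whereas scaling by library size alone gave 5061 rises and 7166 falls. The size of the change differed more than its direction. Changes under 1 on the log2 scale were similar in number on both sides, with 3102 rises and 3141 falls, and those from 1 to 2 were 1890 rises and 2129 falls. From 2 to 3 there were 581 rises and 515 falls. From 3 to 5 there were 395 rises against 181 falls, and at 5 or more there were 184 rises against 26 falls. Of these 184, 65 showed no more than 3 counts in either 0 h library, so the size of their rise rests on almost no counts at 0 h, and 10 of the 26 showed no more than 3 in either 1 h library.

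**Figure D1:**
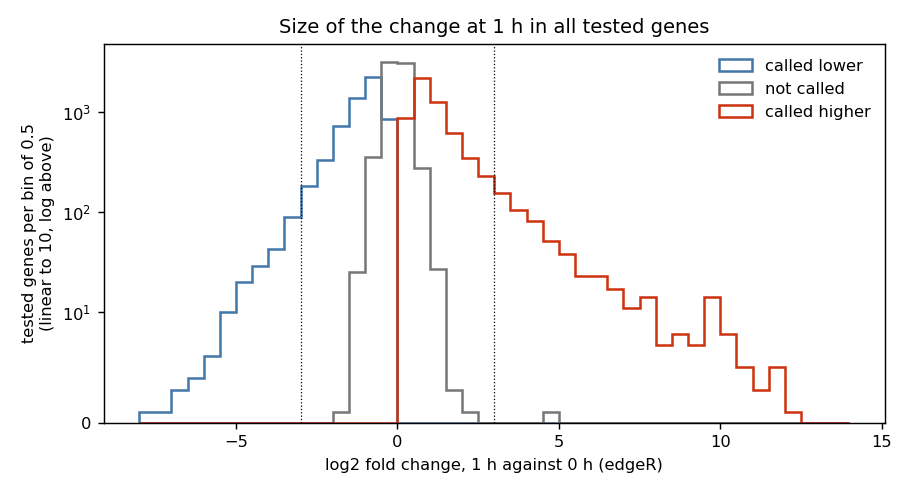
Number of tested genes (vertical axis, linear to 10 and logarithmic above) by log2 fold change at 1 h against 0 h (horizontal axis, bins of 0.5), drawn as separate outlines for genes called higher, called lower and not called, with dotted lines at 3 and -3. Beyond the dotted lines there are 579 called genes on the side of the rises and 207 on the side of the falls.

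Called changes of 3 or more in log2, which is 8-fold, are named strong here. Strong rises numbered 579, or 3.03% of the tested genes, and strong falls 207, or 1.08%. The strong rises mostly began from little RNA. They were chosen by the contrast itself, and a gene could pass the filter on counts through the time at which it was high alone. Their start and end levels are therefore a description only. Their median level was 1.48 CPM (counts scaled to a common library size by the TMM method) at 0 h and 33.7 CPM at 1 h, and the median of their log2 fold changes was 4.17. Among the 579, 72 showed no more than 3 counts in either 0 h library. With these set to the lower bound that 3 counts per library allow (0.123 CPM), the median log2 fold change was 4.15. The genes that rose strongly ended at very different levels. At 1 h, 167 of them were below 10 CPM, 412 at 10 CPM or more, 179 at 100 CPM or more and 39 at 1000 CPM or more, whereas 4 had reached 100 CPM at 0 h. The 1 h replicates were close for these genes, with a median absolute difference of 0.10 in log2(CPM + 0.5), against 0.11 over all tested genes. At 0 h, where many of them had few counts, the difference was 0.25 against 0.18.

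The strong falls began higher and mostly ended at low levels. This too is a description only, since the same cut and filter favour falls that start high and end low. Their median level went from 10.96 CPM at 0 h to 0.777 CPM at 1 h, with a median of -3.63 in log2. Before HS, 113 of the 207 genes stood at 10 CPM or more and 18 at 100 CPM or more. At 1 h, 191 were below 10 CPM and 11 showed no more than 3 counts in either library. The 0 h replicates of these genes differed by a median of 0.58 in log2(CPM + 0.5), more than the 0.18 over all tested genes, while the 1 h replicates differed by 0.15.

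The change in the make-up of the libraries was large. The 579 genes with a strong rise took 0.436% and 0.385% of all counts at 0 h, and 12.7% and 12.9% at 1 h. Both 1 h libraries therefore stood far above both 0 h libraries, and the replicates differed little. These genes were chosen by the same contrast, so the shares describe them and add no support. In the 6 h libraries the same genes took 1.42% and 1.81%. At 1 h, the 184 genes that rose by 5 or more made up most of the share of the strong rises. They went from 0.0650% and 0.0615% of the counts at 0 h to 8.42% and 8.66% at 1 h, and held 0.451% and 0.634% at 6 h. All genes called higher went from 20.5% and 19.8% to 49.0% and 49.6%, and all genes called lower went from 46.1% and 46.8% to 21.8% and 21.6%. Genes that were not called went from 33.2% and 33.3% to 29.0% and 28.7%. In whole leaves, less RNA of a gene per cell and fewer cells of a type cannot be told apart.

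**Figure D2:**
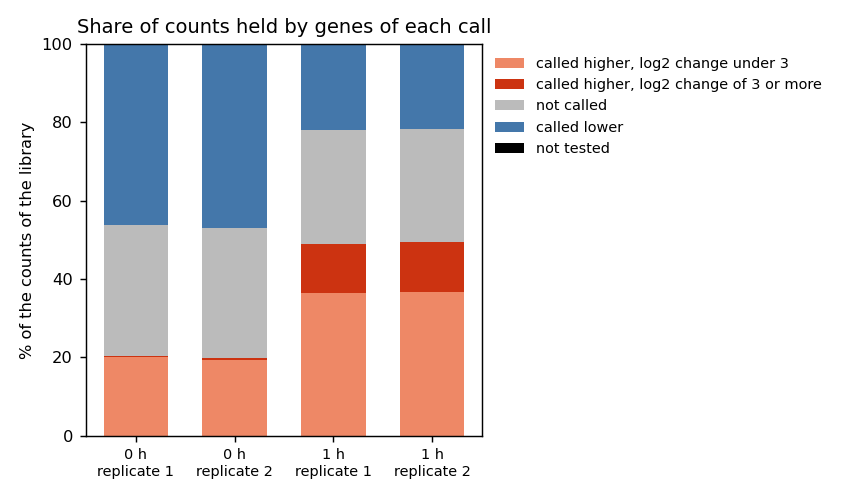
Share of the counts (vertical axis, % of the library) in the 2 libraries of 0 h and the 2 of 1 h, divided into genes called higher by under 3 on the log2 scale, called higher by 3 or more, not called, called lower, and not tested, the last at most 0.176% and too thin to see. Genes called lower shrink from 46.1% and 46.8% to 21.8% and 21.6%, and the strong rises widen from under 0.5% to 12.7% and 12.9%.

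A small number of genes carried part of the gain, though all genes called higher gained far more together. Only 48 genes gained at least 1000 CPM, and 38 of them were strong rises. Together they went from 0.673% and 0.609% of the counts at 0 h to 9.60% and 9.95% at 1 h, and their log2 fold changes ran from 1.07 to 10.91 with a median of 6.78. Losses were more spread out. Only 16 genes lost at least 1000 CPM. A loss of 500 CPM or more was seen in 55 genes. They went from 8.74% and 8.51% of the counts to 3.58% and 3.64%, with a median log2 fold change of -1.22, and 1 of them was a strong fall.

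The 20 genes with the most counts were mostly different ones at 0 h and at 1 h. Counts also depend on the length of a gene, so this ranks shares of the library and not copies of RNA. Of the 20 genes with the highest CPM at 0 h, from 2191 to 4084 CPM, 11 fell, by 0.53 to 1.52 on the log2 scale. The other 9 were not called, with log2 fold changes from -0.51 to -0.20. All 20 remained at high levels at 1 h, from 1081 to 2725 CPM. Of the 20 with the highest CPM at 1 h, from 2253 to 6953 CPM, 16 rose, 1 fell and 3 were not called, and 4 were also among the 20 at 0 h. Of the 16, 11 were strong rises. These 11 genes had 4.85 to 160 CPM at 0 h and 2313 to 6953 CPM at 1 h, with log2 fold changes from 3.88 to 9.66. Among all tested genes 32.2% rose, 31.3% fell and 3.03% rose strongly. Each list was chosen on values that enter the contrast, which favours falls in the first and rises in the second. The counts are therefore a description only.

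HSFA2 was among the genes with the steepest rise. The study labels as HSFA2 the gene Solyc08g062960.4, at 53211703–53213726 on the minus strand of chromosome 8 (M82 assembly, as for all positions here). Its level was 0.835 and 1.08 CPM at 0 h and 572 and 599 CPM at 1 h. It was close to silent in both 0 h libraries, on 20 and 27 counts, and high in both 1 h libraries, on 15526 and 14283 counts. The log2 fold change was 9.24 ± 0.33 (SE, n = 2 per time; edgeR adjusted p = 3.46e-07), which placed it 38th among the rises of all tested genes. At 6 h it stood at 25.8 and 43.2 CPM. The study chose the times of 1 h and 6 h by the expression of HSFA2. These values therefore describe the gene and add no support. The rise was not shared by the genes beside it. The tested gene 1858 bp away on the same strand had 6.55 and 4.54 CPM at 0 h and 4.31 and 5.45 CPM at 1 h and was not called. The tested gene 4381 bp away on the other strand fell from 2.50 and 6.02 CPM to 0.184 and 0.377 CPM, a log2 fold change of -3.93 ± 0.55 (edgeR adjusted p = 3.26e-04).

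The other 3 loci named by the study were also called higher, as were 32.2% of all tested genes. The study selected Solyc09g074475 and HSFA2 in part because they respond to heat. Their calls therefore describe them and add no support. The study also reports like experiments, with the same outcome, on additional candidate enhancers that contact genes of the heat stress response. Whether the loci with contact primers given below are these genes was not settled, so their calls are taken as description too. Solyc09g074475.1, at 62649309–62650158 on chromosome 9, is, like HSFA2, a gene whose contact with a distal element the study tested. It had 0.584 and 0.401 CPM at 0 h and 74.8 and 91.1 CPM at 1 h, without overlap, and a log2 fold change of 7.39 ± 0.38 (edgeR adjusted p = 1.71e-06). Solyc09g015000.4, at 7536107–7537148 on chromosome 9, is taken to be a locus for which the study lists contact primers, since the list writes its ID with a digit fewer. It had 7.01 and 7.63 CPM at 0 h and 2188 and 2254 CPM at 1 h, a log2 fold change of 8.24 ± 0.34 (edgeR adjusted p = 5.97e-07), and its 1 h level was the 23rd highest of all tested genes.

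The other locus with contact primers rose far less and from few counts. Solyc03g026270.3, at 3679642–3680259 on chromosome 3, had 1.42 and 0.722 CPM at 0 h and 4.64 and 4.15 CPM at 1 h, on 34, 18, 126 and 99 counts. It rose by 2.04 ± 0.35 on the log2 scale (edgeR adjusted p = 1.10e-03), and this change ran from 1.61 to 2.60 when either 0 h library was left out. This gene did not stand alone. The next gene on the same strand, 2499 bp away, went from 2.50 and 2.33 CPM to 24.0 and 23.3 CPM (log2 fold change 3.29 ± 0.15), and the one 5456 bp away from 1.71 and 1.28 CPM to 8.15 and 8.72 CPM (2.49 ± 0.27). All 3 neighbours on that strand thus rose. On the other strand, the gene 7023 bp to the left fell by 1.02 on the log2 scale and the gene 7735 bp to the right was not called.

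β-actin gives a contrast to these. Solyc03g078400.3, at 46846329–46849552 on chromosome 3, encodes a part of the cytoskeleton and was the reference gene of the study's quantitative PCR. It had 818 and 720 CPM at 0 h and 709 and 718 CPM at 1 h. Both 1 h values lay just below the 0 h values, and it was not called (log2 fold change -0.11 ± 0.14, edgeR adjusted p = 0.535).

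Most strong rises started near 0, so the genes that changed from a clear level at 0 h were looked at apart. The pair with the largest called rise and the pair with the largest called fall among genes of at least 50 CPM at 0 h were taken, a choice made after their values were seen. Solyc06g076020.3, at 49863835–49866948 on chromosome 6, had 80.5 and 51.2 CPM at 0 h and 3390 and 3625 CPM at 1 h, a log2 fold change of 5.74 ± 0.36. The 0 h libraries differed by more than the 1 h libraries, and leaving out either 0 h library gave 5.42 to 6.10. Solyc02g088610.4, at 50381716–50388829 on chromosome 2, had 70.4 and 73.9 CPM at 0 h and 2868 and 3090 CPM at 1 h (5.37 ± 0.19). At 1 h these genes ranked 8 and 9 by CPM.

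The genes beside them moved less and in both directions. The gene 470 bp from Solyc06g076020.3 fell by 0.79 on the log2 scale, and the one 4011 bp away was not called. Beside Solyc02g088610.4, the gene 231 bp to the left fell by 0.98, from 37.5 and 31.8 CPM to 16.4 and 18.8 CPM. The gene 522 bp to the right rose by 0.83 ± 0.12, from 42.6 and 37.2 CPM to 76.4 and 65.6 CPM, and the one 8435 bp to the left rose by 0.95 ± 0.13, from 43.6 and 34.4 CPM to 73.9 and 77.2 CPM. Those 3919 bp to the left and 4753 bp to the right were not called.

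The falls from such a level went nearly to 0. Solyc05g053400.3, at 66133534–66134700 on chromosome 5, had 60.6 and 71.3 CPM at 0 h and 1.29 and 1.22 CPM at 1 h, a log2 fold change of -5.71 ± 0.23. Solyc12g098590.3, at 69291859–69294027 on chromosome 12, had 43.7 and 68.5 CPM at 0 h and 1.55 and 1.38 CPM at 1 h (-5.25 ± 0.27). In both, the 1 h libraries held 29 to 42 counts of the gene where the 0 h libraries held 1047 to 1777. At 6 h the first stood at 14.3 and 9.86 CPM and the second at 0.840 and 0.582 CPM.

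**Figure D3:**
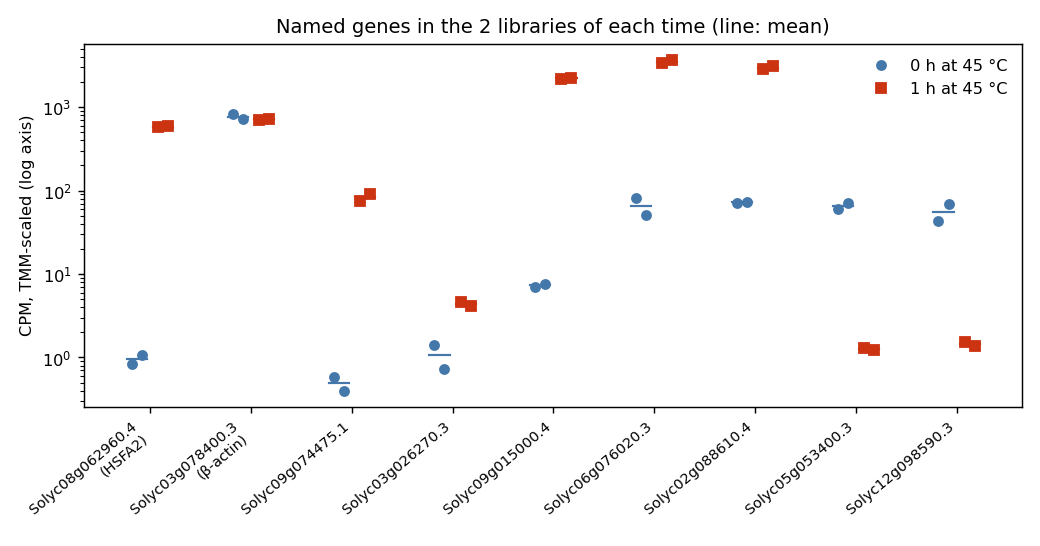
CPM with TMM scaling (vertical axis, logarithmic) of 9 named genes in the 2 libraries of 0 h (circles) and the 2 libraries of 1 h (squares), with a line at each mean. HSFA2 goes from about 1 CPM to 572 and 599 CPM, β-actin stays between 709 and 818 CPM, and the last 2 genes go from at least 43.7 CPM to at most 1.55 CPM.

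Calls of any size were made at all levels, and strong rises most often at both ends of the scale. Genes were divided into deciles by mean CPM over the 6 libraries. The share called higher ran from 24.3% in decile 2 to 38.8% in decile 8, and the share called lower from 27.1% in the lowest decile to 35.5% in the highest. Strong rises made up 7.005% of the lowest decile, 1.41% of decile 6 and 4.76% of the highest. Strong falls made up 2.98% of the lowest decile and 0.523% of the highest. A gene with a low mean could pass the filter on counts through the time at which it was high alone, and the mean itself holds the 1 h values, so a strong rise also lifts a gene into a higher decile. The shares of strong changes by decile are therefore a description only. Among the 4676 genes with at least 50 CPM at 0 h, 1116 rose and 1996 fell, where 6152 rose and 5992 fell of all 19123. This set was chosen on the 0 h values that enter the contrast, and the part of that choice in the split was not tested.

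Strong changes were more frequent among short genes. The span of a gene from start to end, introns included, was 3709 bp at the median of all tested genes, 1982 bp for the strong rises and 2247 bp for the strong falls. In the decile of genes with the shortest spans, 60 to 880 bp, 131 genes (6.84%) rose strongly and 36 (1.88%) fell strongly. In the decile with the longest spans, 9677 to 64838 bp, the numbers were 15 (0.784%) and 4 (0.209%). The shares mostly decreased from decile to decile. Calls of any size depended on span much less, with 35.5% called higher and 29.3% called lower in the shortest decile and 26.1% and 32.5% in the longest. Short genes have fewer counts, so genes with a mean of at least 10 CPM over the 6 libraries were also counted alone. In the shortest decile, 66 of 962 such genes (6.86%) rose strongly and 10 (1.04%) fell strongly. In the longest, 10 of 1570 (0.637%) rose strongly and 2 (0.127%) fell strongly. That mean holds the 1 h values, and the part of the counts in the shares was not tested.

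**Figure D4:**
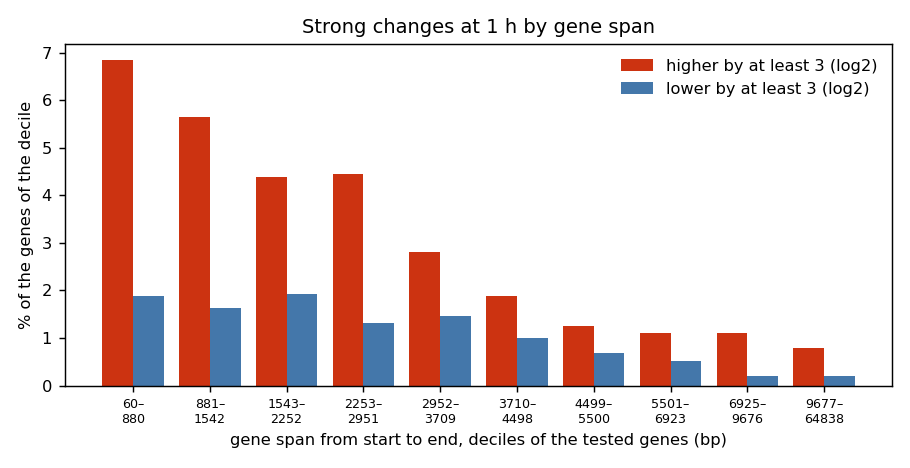
Share of genes (vertical axis, %) with a strong rise or a strong fall in each decile of the tested genes by span from start to end (horizontal axis, bp). Strong rises go from 6.84% in the shortest decile to 0.784% in the longest, and strong falls from 1.88% to 0.209%.

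All 12 chromosomes took part. The share of tested genes called higher ran from 28.0% on chromosome 11 to 33.7% on chromosome 4, and the share called lower from 28.6% on chromosome 4 to 32.6% on chromosome 7. Strong rises ran from 2.12% on chromosome 11 to 3.99% on chromosome 9, and strong falls from 0.471% on chromosome 11 to 1.59% on chromosome 7. Genes whose ID marks them as additions from a tomato pan-genome were mostly too low to test, with 104 of 1768 tested. Of these 104, 34 (32.7%) rose and 26 (25.0%) fell, near the 32.2% and 31.3% of all tested genes.

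Some of the strong rises lay side by side. Runs of at least 3 strong rises that followed each other with gaps of at most 50000 bp were counted, other genes being allowed between them. There were 20 such runs, on 11 chromosomes, and they held 75 genes, 12.95% of the strong rises. In 7 runs all strong genes lay on a single strand. For strong falls there was 1 run, of 3 genes. When genes that overlap another gene were left out, the runs of strong rises numbered 16. No test was made of whether runs are more common than gene density gives. Near-identical copies in such runs were not looked for, since no sequence was used, and reads that fit several copies can be lost or split between them.

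The run with the largest gain lay on chromosome 6, at 50213867–50282043. Its 5 strong rises summed to 108 and 96.2 CPM at 0 h and to 6565 and 6753 CPM at 1 h. Within its first 17 kb, 3 genes each reached about the same level: that at 50213867–50214331 went from 50.2 and 43.3 CPM to 2094 and 2167 CPM, that at 50224899–50225744 from 8.14 and 6.30 CPM to 2009 and 2048 CPM, and that at 50229439–50230009 from 24.5 and 21.95 CPM to 2066 and 2113 CPM. Their log2 fold changes were 5.51 ± 0.23, 8.13 ± 0.25 and 6.49 ± 0.21. The gene at the other end, at 50278854–50282043, rose by 4.03 ± 0.12, from 25.0 and 24.6 CPM to 390 and 420 CPM. Between these lay a stretch that did not follow. Of its 7 tested genes, 2 rose, by 0.50 and 0.82, 4 fell and 1 was not called. The largest of the falls was -1.97 ± 0.17, from 36.3 and 48.5 CPM to 10.8 and 10.9 CPM.

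On chromosome 9, the 4 tested genes at 7504353–7549652 all rose strongly, and Solyc09g015000.4 is the second of them. Their sum was 28.1 and 27.1 CPM at 0 h and 4454 and 4656 CPM at 1 h. The first gene went from 18.8 and 16.6 CPM to 209 and 235 CPM (log2 fold change 3.65 ± 0.20). The last, at 7549018–7549482, went from 2.09 and 2.53 CPM to 1823 and 1936 CPM (9.67 ± 0.53).

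The region on chromosome 8, at 58575580–58761274, held the most strong rises of any run. There were 8 among 17 tested genes, and 7 of the 8 lay on the minus strand. The 8 summed to 42.3 and 29.5 CPM at 0 h and to 559 and 580 CPM at 1 h. Of the 9 other tested genes, 7 rose, by 0.72 to 2.96, and 2 fell. In all, 15 of the 17 rose, where 32.2% of all tested genes did. The region was picked for its rises, so this count describes it only.

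**Figure D5:**
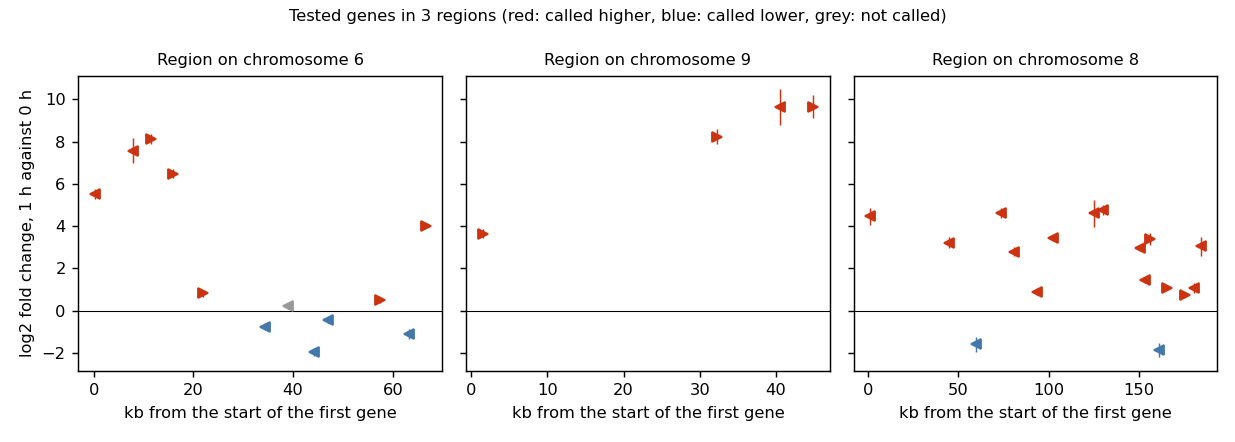
Log2 fold change at 1 h against 0 h (vertical axis, bars: SE) of the tested genes in 3 regions by distance from the start of the first gene (horizontal axis, kb), with arrowheads to the right for the plus and to the left for the minus strand. On chromosome 6 strong rises flank a stretch with changes from -1.97 to 0.82, on chromosome 9 all 4 genes rose, and on chromosome 8 15 of 17 rose.

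The single run of strong falls, on chromosome 2 at 38995260–39048028, was dominated by its first gene. That gene, at 38995260–38997382, went from 965 and 872 CPM to 27.7 and 28.1 CPM, a log2 fold change of -5.04 ± 0.18. It held the highest 0 h level of any gene with a strong fall. The others had at most 18.3 CPM at 0 h. The count of such runs rests on genes close to the limit of 3. It was 2 without HS 1 h replicate 1 and 0 without HS 1 h replicate 2, where edgeR still called 4318 falls in all.

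Genes beside the 48 that gained at least 1000 CPM moved in both directions. Within 2000 bp of them or overlapping them lay 32 other tested genes, of which 13 rose (40.6%), 13 fell and 6 were not called, against 32.0% that rose among the 19043 genes elsewhere. The counts differed by side: 7 of 9 that lay upstream of the start rose, and 4 of 21 that lay downstream of the end. These counts are small and were given no test.

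Both tested genes that overlapped one of the 48 on the opposite strand rose strongly. The first, on the minus strand of chromosome 1 at 80810604–80811986, had 0 counts in both 0 h libraries and 174 and 114 counts at 1 h, while the gene that it overlaps went from 31.3 and 22.7 CPM to 5864 and 6703 CPM. Its 1 h counts were 0.109% and 0.0713% of those of its partner. The second is the third gene of the chromosome 9 region, on the minus strand at 7539994–7549652, whose span holds the whole of the last gene. It had 4 and 10 counts at 0 h and 6341 and 5501 at 1 h, 12.8% and 11.9% of those of the gene within it (log2 fold change 9.64 ± 0.84). Counting was set to use strand, but the part of reads from the partner in these counts was not tested.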

How the data were processed

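RNA-seq counts of 6 leaf libraries were used, of which 4 enter the comparison. The members and the gene lists were chosen with earlier results of these data known. The file deposited by the authors gives a raw count for each gene and library, not normalized and not pooled. Per the file headers they were counted with featureCounts 2.0.0 on the M82 gene models, strand used, mapping quality of at least 30, from start to end of each gene. Per the labels, tools included Trimmomatic 0.38, Bowtie2 2.3.5 and SAMtools 1.9, whereas the methods name STAR for RNA-seq, and single reads of 75 bp are stated while the header sets the option for pairs. Neither was settled, so a count may be a read or a fragment. Copies with like sequence can be undercounted.

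Depth was 25147160 to 30738632 counts per library (25147160 to 25160755 at 0 h, 27606231 to 30738632 at 1 h), so that a floor of 3 counts stood at 0.111 to 0.126 CPM in the 4 libraries. This covers counting error only. Replicates were pools of plants per the study.

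The genes that reached 50 counts in 2 or more libraries were fitted with edgeR 4.0.16 in R 4.3.3 (TMM factors of 0.866 to 0.992 in the 4 libraries, all 6 libraries in the fit, 3 residual degrees of freedom). The contrast of 1 h minus 0 h was taken to the quasi-likelihood test (two-sided) with Benjamini-Hochberg adjustment over all tested genes. The SE is the size of the log2 fold change over the root of its F value. The procedure was tested on simulated data in which few genes changed and none strongly. That test does not bear on the strong changes or on the balance of rises and falls. Alternatives were DESeq2 1.42.0, other scalings, filters and thresholds, a fit of the 4 libraries, a replicate block, leaving out overlapping genes, and leaving out each library.

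Planned gene lists by function (51), cell type markers and promoter motifs rest on matching IDs to RefSeq, where 0 IDs matched, and no genome was used. Genes carry a name only where the study gives one, the tissue label was not checked against markers, and no sequence is shown. The named genes are those of the study, and 4 IDs chosen after their values were seen in place of the rule by annotation.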

Additional observations from a re-analysis of the deposited data

How the results depend on the processing

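DESeq2, other scalings, filters, thresholds, a fit of the 4 libraries alone, a replicate block, leaving out overlapping genes and leaving out each library were tried, and no named gene changed its direction or its side of the threshold. Rises outnumbered falls in most settings, but not under library size or upper-quartile scaling or in the fit of the 4 libraries, with 6020 rises and 6107 falls. Without a filter on low counts, which added genes of few counts, strong rises numbered 893 and strong falls 340. With a minimum absolute log2 fold change of 1 the calls were 3050 higher and 2851 lower. Without 1 library at a time, calls ran from 4879 to 6136 higher and 4318 to 5998 lower, strong rises from 547 to 675 and strong falls from 183 to 243. The numbers of calls were lowest when a 1 h library was left out. The single run of strong falls was lost without HS 1 h replicate 2 and became 2 runs without HS 1 h replicate 1. In the most abundant decile, 445 genes were called lower without HS 1 h replicate 1, against 679. DESeq2 called 5966 higher and 5771 lower.

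Scaling by library size shifted the median of all genes by -0.15 on the log2 scale, and upper-quartile scaling by the same. Of the calls, 41.4% and 42.1% were then rises, against 50.7%, with 5061 and 5216 rises and 7166 and 7162 falls, so the near balance of rises and falls depends on the scaling. β-actin was at -0.26 under library size scaling and was not called. Runs of strong rises numbered 37 and runs of strong falls 5 without the filter on low counts, and 33 and 5 with edgeR's filterByExpr. Leaving out genes that overlap another gave 16 runs of strong rises and 1 of strong falls. Replicate numbers are shared by the groups, but deviations of same-numbered libraries had a correlation of -0.096 and only 2 pairs exist, so they were not taken as pairs. The fit with the replicate number as a block called 6157 higher and 5931 lower, with 585 strong rises and 206 strong falls. Alternatives for the gene lists could not be run, since no list had a member.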
